A study of Mus musculus with 8 samples.

Results

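Plasmacytoid dendritic cells (pDCs) were examined in single-cell transcriptomes of whole livers from 8 wild-type C57BL/6 mice. A cell was counted as a pDC when its barcode had more than 500 genes and less than 25% of its unique molecular identifiers (UMIs) from mitochondrial genes, at least 3 UMIs of Siglech, at least 1 UMI of Ccr9 and Cox6a2 together, and no UMI of Csf1r, Cd3e or Cd79a. This rule found 1284 pDCs among 80474 cells that passed the gene and mitochondrial limits. The mice formed 3 groups: 2 controls, which by the study's methods ate a normal diet, 3 mice on a high-fat diet with fructose solution and intraperitoneal carbon tetrachloride (HFD+F+CCl4), and another 3 in which a western diet took the place of the high-fat diet (WD+F+CCl4). Each mouse gave 1 library of enzymatically dissociated liver. The 6 treated mice are called NASH mice, for nonalcoholic steatohepatitis. Both diets contained cholesterol by the study's methods, the western diet more of it, and carbon tetrachloride, a hepatotoxin, was shared by both models. No group received carbon tetrachloride or fructose without a diet, so that the agents cannot be told apart. The mice's ages were not given in the labels used here.

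pDCs are bone marrow-derived immune cells that sense viral and self nucleic acids through the endosomal receptors Toll-like receptor 7 and Toll-like receptor 9 and answer with large amounts of type I interferon. They develop under the transcription factor Tcf4 (E2-2), keep a well-developed secretory apparatus, and present antigen less efficiently than conventional dendritic cells (cDCs), which prime T cells. Siglech encodes a sialic acid-binding surface receptor coupled to DAP12, Ccr9 a chemokine receptor for homing, and Cox6a2 a subunit of cytochrome c oxidase otherwise known from heart and skeletal muscle. Csf1r, Cd3e and Cd79a mark mononuclear phagocytes, T cells and B cells.

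The libraries differed in depth and in the number of pDCs they held. Between 4168 and 11999 cells per mouse passed the limits, which left 14956 cells of control mice, 31956 of the HFD+F+CCl4 model and 33562 of the WD+F+CCl4 model. Control mouse 2 was shallow, with 6135827 UMIs against 36699315 to 64855024 in the other 7 libraries and a median of 1252 UMIs per pDC against 2614 to 4264. HFD+F+CCl4 mouse 1 held only 11 pDCs with 41177 UMIs, so that 1 UMI in its pDCs is 24.3 counts per 1000000 (CPM). The pDCs of the 8 mice together held 4854233 UMIs. No barcode was repeated among the pDCs, whereas 732 of 79739 distinct barcodes of all passing cells occurred in more than 1 library and 25 pDCs shared their barcode with a cell of another library. Values of mice are given in the order of their replicate numbers.

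The values that chose the cells are a description and carry no test. Siglech, at chr7:55768178-55778925 of GRCm38, had a median of 12 and a maximum of 52 UMIs per pDC and stood at 3658 and 3699 CPM in the controls, 2550.0, 3853 and 3415 CPM with HFD+F+CCl4 and 3485, 3508 and 3745 CPM with WD+F+CCl4. Ccr9 (chr9:123678439-123784330) stood at 1219.6 and 1438 CPM in the controls, 1069, 1059 and 993 CPM with HFD+F+CCl4 and 1202, 947 and 1339.8 CPM with WD+F+CCl4. Cox6a2 (chr7:128205435-128206387) ranged from 1089.6 CPM in control mouse 2 to 2135 CPM in WD+F+CCl4 mouse 3. Its widely expressed paralog Cox6a1 ranged from 229.8 to 383 CPM in pDCs.

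Of 2105 passing cells with at least 3 Siglech UMIs, 181 lacked both Ccr9 and Cox6a2, 496 held Csf1r, 157 Cd3e and 152 Cd79a. Just inside the Siglech limit lay 72 pDCs with exactly 3 UMIs, 29 of them from the shallow control mouse 2. Their pooled levels were 1866 CPM of Bst2, 2554 CPM of Tcf4 and 1738 CPM of Ly6d at a median of 1237.5 UMIs per cell. Just outside lay 71 cells with 2 Siglech UMIs that met the rest of the rule, 30 of them from control mouse 2. These held 1501 CPM of Bst2, 2291 CPM of Tcf4 and 1189.5 CPM of Ly6d at a median of 979 UMIs. Cells on both sides of the limit were shallow beside the pDCs above it, whose median was 3883.5 UMIs.

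The label was checked on 25 genes of pDC identity that the rule did not use. Bst2, the target of the pDC antibody PDCA-1, had a UMI in 97.0% of pDCs, 66.1% of cDCs and 13.7% of B cells, at median depths of 3830, 6099 and 1773 UMIs. Tcf4 had one in 99.1% of pDCs, 46.3% of cDCs and 42.2% of B cells. Of the rule's own genes, Ccr9 had a UMI in 91.1% and Cox6a2 in 86.1% of pDCs. Ly6d, which pDCs share with B cells, was detected in 89.6% of pDCs, 3.39% of cDCs and 87.6% of B cells. Tlr9 was the weakest member of the list, with a UMI in 34 of 1284 pDCs (2.65%) against 0.828% of cDCs.

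**Figure D1:**
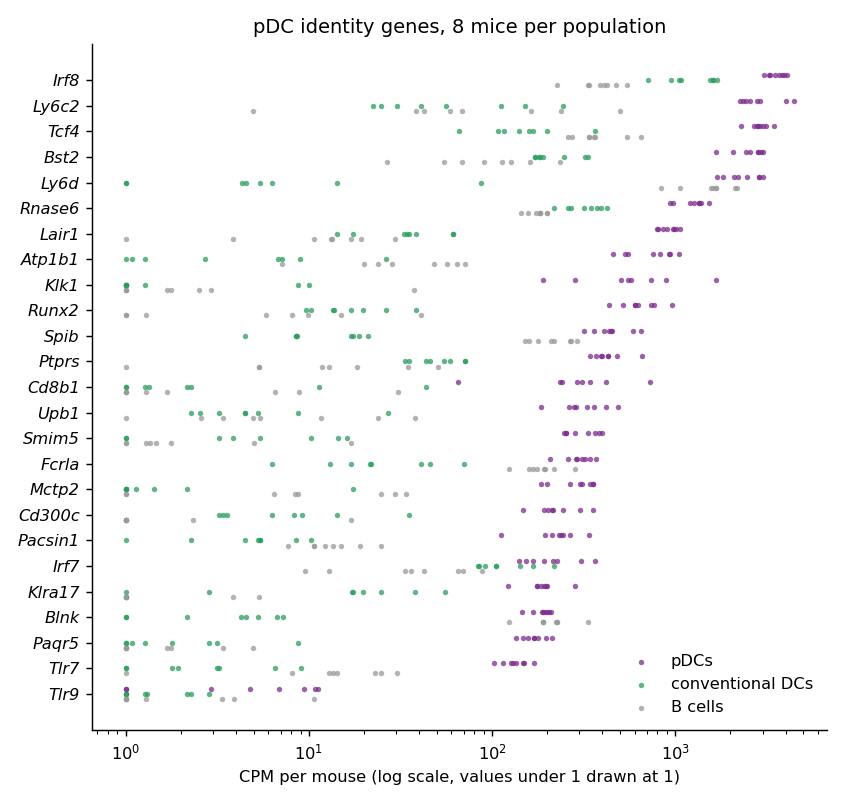
Levels of the 25 pDC identity genes in pDCs, cDCs and B cells, with 1 point per mouse and CPM on a log axis; values under 1 CPM are drawn at 1. The pDC points of genes such as Tcf4 and Bst2 lie to the right of those of both other cell types, whereas the Ly6d points of pDCs and B cells lie close together.

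Across the 8 mice the identity genes differed in how steady they were. Irf8, a transcription factor of the dendritic lineage, was the steadiest of 24 measured genes at 3053 to 4080 CPM (coefficient of variation 10.0%). Tcf4 followed a similar narrow range of 2298 to 3443 CPM (11.5%) and Bst2 one of 1660 to 3022 CPM (18.6%). At the other end, Klk1, a tissue kallikrein, spanned 189 to 1676 CPM (68.4%) and Cd8b1, the CD8 beta chain, 65.2 to 729 CPM (58.2%). Klk1 had a UMI in 48.8% of pDCs and in 0.497% of cDCs.

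The pDC share of passing cells was then taken for each mouse. It depends on the other cells recovered and does not give the number of pDCs in a liver. The share was 2.29% in control mouse 1 (exact binomial 95% interval 2.02 to 2.59%) and 2.04% in control mouse 2 (1.63 to 2.52%). In the HFD+F+CCl4 mice it was 0.0984% (0.0491 to 0.176%), 1.75% (1.502 to 2.02%) and 1.16% (0.969 to 1.39%). With WD+F+CCl4 it was 2.25% (1.99 to 2.53%), 1.22% (1.01 to 1.46%) and 2.13% (1.88 to 2.41%). The intervals cover counting error only. Of the 6 NASH mice, 4 lay below both controls and 2 lay between them, and HFD+F+CCl4 mouse 1 stood far below all other mice.

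**Figure D2:**
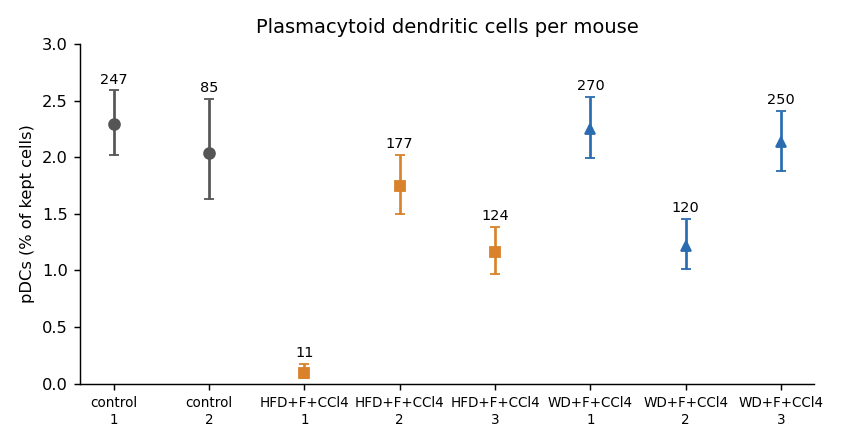
The pDC share of passing cells in percent for each mouse by group, with exact binomial 95% intervals and the number of pDCs written at each point. The HFD+F+CCl4 mouse with 11 pDCs lies near 0, and the WD+F+CCl4 points reach the level of the controls.

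NASH mice had a mean share of 1.44 ± 0.795% (SD, n = 6) against 2.16 ± 0.177% (n = 2) in control mice, a difference of −0.729 percentage points that did not pass the test (two-sided exact permutation test, p = 0.286, smallest possible p 0.0357). WD+F+CCl4 mice had 1.87 ± 0.565% and HFD+F+CCl4 mice 1.00 ± 0.837% (exact permutation p = 0.2, adjusted over both comparisons p = 0.286; with 3 mice against 3 the smallest possible p is 0.1). Without HFD+F+CCl4 mouse 1 the difference between NASH and control was −0.461 percentage points, and without control mouse 2 it was −0.854. Among cells with at least 1000 UMIs, each thinned to 1000, the same rule gave −0.782 points (exact permutation p = 0.143). This kept 2031 of the 4168 cells of control mouse 2. The limits on Csf1r, Cd3e and Cd79a were applied to the thinned counts. The difference moved with other limits. With at least 5 Siglech UMIs it was −0.212 points (exact permutation p = 0.857), with at least 2 −1.04 points (exact permutation p = 0.107), and among cells with more than 1000 genes −1.69 points (exact permutation p = 0.107). Control mouse 2 had 642 cells with more than 1000 genes, 22 of them pDCs. Thinning together with a limit of 1 Siglech UMI gave 3.39% in control and 1.51% in NASH mice. That is a difference of −1.89 points (exact permutation p = 0.0357, the smallest this design can give). All 6 NASH mice lay below both controls. The control mean joined 2.65% in control mouse 1 and 4.14% in control mouse 2 (84 of 2031 cells). Between the models, the difference of 0.864 points became 1.46 points among cells with more than 1000 genes, with all 3 WD+F+CCl4 mice above all HFD+F+CCl4 mice (exact permutation p = 0.1, the smallest possible).

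To place the pDCs among liver dendritic cells, they were set beside 1208 cDCs (639 of type 1 and 522 of type 2), taken as cells with at least 2 UMIs of Xcr1, Clec9a and Cd209a together and none of Siglech, Csf1r, Cd3e and Cd79a. B cells had at least 2 UMIs of Cd79a and none of Siglech, Csf1r and Cd3e. Since the rules for the cells made this contrast, its values are a description. With a quasi-likelihood fit on summed UMIs per mouse, 3580 of 7690 genes tested had an adjusted p under 0.05 (46.6%), 1720 higher in pDCs (22.4%) and 1860 lower (24.2%). All 24 testable identity genes were among the higher ones, with a median log2 difference of 5.08 against −0.02 over all genes tested. Tcf4 stood at 2889 ± 333 CPM (SD, n = 8) against 165 ± 90.8 CPM in cDCs. Bst2, which also restrains enveloped viruses, stood at 2546 ± 474 CPM (SD, n = 8) against 225 ± 67.7 CPM. Ly6d was near absent from cDCs, at 2379 ± 501 CPM (SD, n = 8) against 15.4 ± 29.5 CPM, and averaged 1586 CPM in B cells.

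Several of the genes farthest above cDCs had almost no UMI there, so that only levels are given. Dntt, the template-independent DNA polymerase of lymphoid progenitors, had 1067 UMIs in pDCs and 3 in cDCs, a mean of 195 ± 67.3 CPM (SD, n = 8) in pDCs. Klk1b27, a second kallikrein, had 809 UMIs in pDCs and none in cDCs, and its pooled level of 166.7 CPM was at least 461-fold higher than the floor of 3 UMIs over all cDCs (0.362 CPM). Kallikrein genes are close paralogs, so reads could be split among them. Atp2a1, a calcium pump of the sarcoplasmic reticulum, had 856 UMIs against 3, Sla2, an adaptor of lymphocyte receptors, 524 against 3, Sh3bgr 484 against 2 and Ccdc162 368 against 1. Havcr1 (TIM-1) had 697 against 7, and Iglc3, an immunoglobulin light chain constant gene with near-identical copies, 4412 against 27. B cells averaged 1244 CPM of Iglc3 and pDCs 839 ± 221 CPM (SD, n = 8).

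Other genes lay far below cDCs. Batf3, the transcription factor of type 1 cDCs, stood at 13.3 ± 13.1 CPM (SD, n = 8) against 194 ± 45.1 CPM. Naaa, an amide hydrolase used as a type 1 cDC marker, had 151 UMIs in pDCs and 7610 in cDCs. Tlr3, a receptor for double-stranded RNA, stood at 7.58 ± 8.14 CPM (SD, n = 8) against 165 ± 47.1 CPM, and Cxcl9, a chemokine for activated T cells, at 12.3 ± 9.61 CPM (SD, n = 8) against 299 ± 212 CPM. Gpr141b, Tlr11, Snx22, Gcsam, Nectin1, Zfp366, Ifi205 and Cd34 had 2 to 32 UMIs in all pDCs and 413 to 1456 in cDCs.

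The transcription factors split along lineage, with 8 of 13 higher and 5 lower in pDCs. Runx2, needed for pDC egress from the marrow, differed by 5.17 on the log2 scale, Spib by 5.05, Bcl11a by 2.71, Mef2c by 2.13 and Zeb2 by 1.93. Id2, an inhibitor of E proteins such as Tcf4, differed by −4.30 and stood at 101 ± 99.9 CPM (SD, n = 8) against 1387 ± 260.3 CPM. Nucleic acid sensing gave 8 of 21 genes higher and 4 lower, beside 22.4% higher and 24.2% lower over all genes tested. Tlr7 stood at 135 ± 21.2 CPM (SD, n = 8) against 3.21 ± 3.16 CPM, Pld4, an endolysosomal exonuclease, differed by 1.63, Slc15a4, an endolysosomal transporter, by 1.12 and Unc93b1, the chaperone of endosomal Toll-like receptors, by 0.92. Irf5 was on the other side (−1.09), and Irf7, the interferon master regulator, was only slightly higher (0.71; 7 of 8 mice).

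The secretory list had 15 of 29 genes higher and 3 lower, among them Xbp1, the unfolded protein response factor of secretory cells (380.4 ± 47.9 CPM (SD, n = 8) against 124 ± 29.8 CPM), with its activating kinase Ern1 at a log2 difference of 1.43 and Dnajb9 at 1.37. Antigen presentation through MHC class II went the other way, with 12 of 13 genes lower. Cd74, the invariant chain, stood at 5722 ± 1395 CPM (SD, n = 8) against 19717 ± 3304 CPM, H2-Eb1 differed by −2.89, H2-Aa by −2.27 and the transactivator Ciita by −2.70. MHC class I presentation was mixed, with 9 of 16 higher and 5 lower, beside 22.4% higher and 24.2% lower over all genes tested. Of the cell cycle genes, 20 of 20 were lower in pDCs, with a median log2 difference of −3.47, and Mki67 had a UMI in 1.87% of pDCs and 21.7% of cDCs.

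Homing and inhibitory receptors completed the description. S1pr4, a receptor for sphingosine 1-phosphate, differed by 2.63 on the log2 scale, the chemokine receptor Cxcr3 by 0.74 and Ccr2 by −1.21. In this migration list, 9 of 15 genes were higher and 2 lower. Lag3, an inhibitory receptor that binds MHC class II, stood at 253 ± 106 CPM (SD, n = 8) against 15.3 ± 14.3 CPM, whereas Havcr2 (TIM-3) differed by −3.55. Of the interferon receptor and JAK-STAT genes, 5 of 14 were higher and 4 lower, with Ifnar1 at 1.29 and Ifngr1 at −2.78. Interferon-stimulated genes split evenly, with 10 of 31 higher and 10 lower, and Ifitm3 differed by −3.07. These list counts stand beside 22.4% of all genes tested that were higher and 24.2% that were lower. In the lipid list, Pltp, the phospholipid transfer protein, stood at 1050.1 ± 620.0 CPM (SD, n = 8) against 60.4 ± 33.8 CPM and Cd36, a fatty acid scavenger receptor, differed by −3.02. Of 4 testable B cell genes all 4 were higher, with Ighm at 1254 ± 176 CPM (SD, n = 8) against 245 ± 72.6 CPM and 9581 CPM in B cells.

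Marker genes of other liver cells were also read in the pDCs, and several of these lists moved between groups. The 18 hepatocyte genes summed to 4142 and 3195 CPM in the control pDCs, 302 to 2186 CPM with HFD+F+CCl4 and 338 to 747 CPM with WD+F+CCl4, with 14 of 18 lower in NASH and none at 0. The T and NK cell genes summed to 478 and 1801 CPM in control and 24.3 to 83.7 CPM in NASH pDCs, with 9 of 9 tested genes lower. Both counts stand beside 2.29% of all genes tested that were lower in NASH. The macrophage genes ranged from 452 to 566 CPM in control and from 479 to 4663 CPM in NASH pDCs. Of 9 tested, 1 was higher (Gpnmb), beside 1.32% of all genes tested. Of their log2 fold changes, 9 of 9 were above 0, with a median of 4.37. Of the 12 macrophage genes and the 13 T and NK cell genes, 9 each had the counts to be tested. Genes can meet this count limit through the group where they are high, so that the shared direction in both lists is a description. The neutrophil genes ranged from 87.3 to 6984 CPM and the erythrocyte genes from 0 to 7652 CPM in NASH pDCs, against 283 and 445 CPM and 391 and 697 CPM in controls. The rule itself held Cd3e, Cd79a and Csf1r at 0. In 57 of the 1284 pDCs, macrophage, neutrophil, T and NK cell, hepatocyte or endothelial genes took more than 1% of the UMIs. Main results were also run without these cells. Erythrocyte genes were not part of this limit.

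Next, pDCs of NASH and control mice were compared on summed UMIs per mouse with edgeR's quasi-likelihood test and Benjamini-Hochberg adjustment, which gives each adjusted p below. Of 7592 genes tested, 274 passed an adjusted p of 0.05 in NASH against control (3.61%), 100 higher (1.32%) and 174 lower (2.29%). In HFD+F+CCl4 mice 158 passed (2.08%), 53 higher (0.698%) and 105 lower (1.38%), and in WD+F+CCl4 mice 271 (3.57%), 118 higher (1.55%) and 153 lower (2.02%). These comparisons share the 2 control mice. Without control mouse 1, which leaves the shallow control alone, the NASH count fell to 115 genes, the HFD+F+CCl4 count to 68 and the WD+F+CCl4 count to 154 in this test. Leaving out control mouse 2 and HFD+F+CCl4 mouse 1 together, added after the data were seen, gave 262 genes in NASH, and 23 of 28 named NASH calls were kept, without Ino80b, Eif2d, Wdr70, Gpr183 and Fmnl1 (adjusted p = 0.0559 to 0.328). Without control mouse 2 alone, 24 of 28 were kept, without Eif2d, Wdr70, Fmnl1 and Dhcr7 (adjusted p = 0.0513 to 0.388). Without control mouse 1, 10 of 27 named NASH calls were kept, those of Abcg1, Clec9a, Fgg, Fdps, Idi1, Sqle, Hmgcs1, Aacs, Msmo1 and Fmnl1. Values in parentheses are log2 fold changes ± their standard error (SE), in NASH against control unless another comparison is named.

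Genes of cholesterol synthesis and uptake fell in NASH pDCs. Cells make cholesterol from acetyl-CoA through the mevalonate pathway and also take it up from lipoproteins, and both routes are switched on by the transcription factor SREBP-2 (Srebf2) when sterols in the endoplasmic reticulum are low. Of 19 tested genes of this list, 15 were lower in NASH pDCs and none was higher, beside 2.29% of all genes lower. The median log2 fold change was −1.59 against −0.01 over all genes. The list was chosen with earlier results of these data known, so that its counts are no independent evidence. In HFD+F+CCl4 pDCs 8 of 19 were lower (median −1.18) and in WD+F+CCl4 pDCs 18 of 19 (median −2.01). The 20 genes together made up 2391 and 2068 CPM in the controls, 996, 929 and 1301 CPM with HFD+F+CCl4 and 422, 672 and 514 CPM with WD+F+CCl4. All 6 NASH mice lay below both controls, and the 3 WD+F+CCl4 mice lay below the 3 HFD+F+CCl4 mice. Over all tested genes, 7.98% had every NASH mouse below both controls and 5.68% every NASH mouse above them, while 11.7% had the WD+F+CCl4 mice all below the HFD+F+CCl4 mice and 4.98% all above.

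The fall ran through the pathway from its first steps to its last. Hmgcs1, which makes HMG-CoA, stood at 296 and 215 CPM in the controls, 170.0, 83.8 and 103 CPM with HFD+F+CCl4 and 34.3, 62.2 and 32.8 CPM with WD+F+CCl4 (log2 fold change −2.08 ± 0.22, adjusted p = 5.37e-09). It was lower in each NASH mouse than in the 2 controls, which was a condition for naming the gene. Idi1, the isopentenyl diphosphate isomerase, stood at 161 and 156 CPM (control), 48.6, 37.2 and 62.5 CPM (HFD+F+CCl4) and 12.01, 35.9 and 24.4 CPM (WD+F+CCl4) (−2.26 ± 0.26, adjusted p = 8.85e-08). Fdps, which makes farnesyl diphosphate and lies at chr3:89093588-89101959, had the largest fall of the list, at 209 and 193 CPM in the controls, 24.3, 39.1 and 75.4 CPM with HFD+F+CCl4 and 18.02, 21.5 and 31.9 CPM with WD+F+CCl4 (−2.46 ± 0.24, adjusted p = 1.45e-09).

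Sqle, the squalene epoxidase and first oxygenation step, stood at 111 and 126 CPM in the controls, 0, 48.4 and 64.6 CPM with HFD+F+CCl4 and 9.44, 21.5 and 11.3 CPM with WD+F+CCl4 (−2.14 ± 0.29, adjusted p = 2.20e-06), where the 0 in HFD+F+CCl4 mouse 1 is a count in 11 cells. Msmo1, a sterol methyl oxidase, stood at 233 and 208 CPM (control), 97.1, 80.03 and 125 CPM (HFD+F+CCl4) and 29.2, 47.9 and 38.5 CPM (WD+F+CCl4) (−1.86 ± 0.21, adjusted p = 3.69e-08). For both enzymes the WD+F+CCl4 mice had the lowest values apart from that 0. Cyp51 (−1.28, adjusted p = 0.00131), Mvd (−1.53, adjusted p = 0.00678), Nsdhl (−1.74, adjusted p = 0.0136), Fdft1 (−1.44, adjusted p = 0.0229), Sc5d (−1.002, adjusted p = 0.0193) and Dhcr7 (−1.18, adjusted p = 0.0275), further enzymes of the pathway, fell as well.

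A feedback gene moved in the same direction. Insig1, which holds SREBP in the endoplasmic reticulum and is itself an SREBP target, stood at 132 and 74.1 CPM (control), 48.6, 44.7 and 53.9 CPM (HFD+F+CCl4) and 23.2, 33.5 and 34.7 CPM (WD+F+CCl4) (−1.59 ± 0.26, adjusted p = 4.55e-05). Aacs, an acetoacetyl-CoA synthetase outside the list that feeds cytosolic lipid synthesis, stood at 62.3 and 96.4 CPM (control), 24.3, 13.03 and 30.2 CPM (HFD+F+CCl4) and 12.9, 16.7 and 14.1 CPM (WD+F+CCl4) (−2.01 ± 0.35, adjusted p = 0.000157). Srebf2 itself stood at 205 and 185 CPM in the controls, 170.0, 160.1 and 231 CPM with HFD+F+CCl4 and 107, 124 and 96.6 CPM with WD+F+CCl4, did not pass in NASH (−0.45 ± 0.21, adjusted p = 0.316) and was lower in WD+F+CCl4 pDCs (−0.80 ± 0.23, adjusted p = 0.0368). Lss (−1.33, adjusted p = 0.0842), Stard4 (−1.33, adjusted p = 0.0581) and Acat2 (−1.50, adjusted p = 0.0574) did not pass in NASH, and Mvk had too few counts to be tested.

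**Figure D3:**
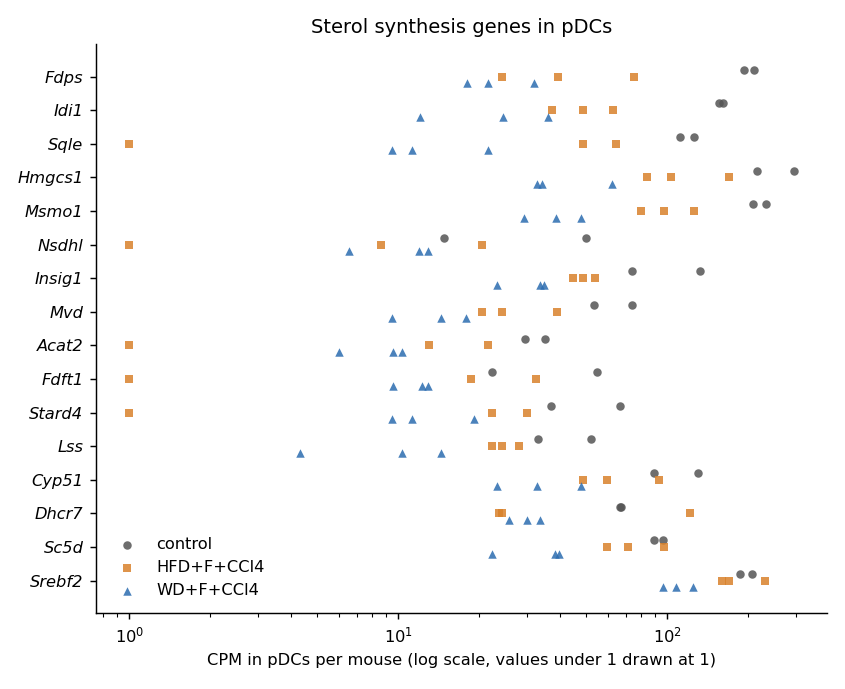
Levels of 16 tested genes of the sterol list in pDCs, with 1 point per mouse coloured by group and CPM on a log axis. For most genes the control points lie to the right of the NASH points, and for Hmgcs1 and Msmo1 every WD+F+CCl4 point lies to the left of every HFD+F+CCl4 point.

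Promoter sequences of 13 of the 20 genes matched a RefSeq entry (GRCm38.p6), and 4 of those that fell are shown for the letters they share. Each run gives the 250 bases before the transcription start, 5′ to 3′ on the gene's strand, with a sterol regulatory element (TCACNCCAC) or a CCAAT box in capitals. Both motifs were searched on both strands, so that ATTGG is a CCAAT box on the opposite strand, and no 2 matches overlapped. The Hmgcs1 window is chr13:119690101-119690350 (plus strand), that of Idi1 chr13:8885356-8885605 (plus), that of Msmo1 chr8:64733579-64733828 (minus) and that of Insig1 chr5:28071162-28071411 (plus).
Hmgcs1: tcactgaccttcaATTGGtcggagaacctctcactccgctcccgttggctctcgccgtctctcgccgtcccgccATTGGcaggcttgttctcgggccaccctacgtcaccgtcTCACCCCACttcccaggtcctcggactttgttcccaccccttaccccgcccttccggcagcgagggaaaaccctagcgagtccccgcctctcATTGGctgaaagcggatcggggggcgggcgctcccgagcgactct
Idi1: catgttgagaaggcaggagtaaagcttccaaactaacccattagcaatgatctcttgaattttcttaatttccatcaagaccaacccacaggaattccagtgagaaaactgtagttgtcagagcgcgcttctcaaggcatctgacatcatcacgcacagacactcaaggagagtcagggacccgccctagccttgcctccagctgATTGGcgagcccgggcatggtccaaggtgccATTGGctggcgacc
Msmo1: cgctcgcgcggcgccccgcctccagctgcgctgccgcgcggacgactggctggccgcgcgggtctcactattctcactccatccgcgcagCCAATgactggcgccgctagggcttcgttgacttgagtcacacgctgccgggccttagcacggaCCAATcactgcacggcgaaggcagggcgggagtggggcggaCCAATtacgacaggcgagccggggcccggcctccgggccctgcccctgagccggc
Insig1: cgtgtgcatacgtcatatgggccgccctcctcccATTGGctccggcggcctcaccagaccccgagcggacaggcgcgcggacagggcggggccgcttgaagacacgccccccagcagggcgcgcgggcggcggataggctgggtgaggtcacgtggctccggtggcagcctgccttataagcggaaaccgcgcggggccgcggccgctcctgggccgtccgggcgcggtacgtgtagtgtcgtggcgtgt

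The Hmgcs1 window holds the sterol regulatory element TCACCCCAC with its first base 137 bases before the start, together with 3 CCAAT boxes. The Idi1 window holds 2 CCAAT boxes, that of Msmo1 3 and that of Insig1 1. A CCAAT box was present for 12 of the 13 matched genes (92.3%), for 9 of the 9 matched genes lower in NASH, for 2390 of 5968 matched genes tested in pDCs (40.0%) and for 10133 of all 27025 genes with a promoter (37.5%). The sterol regulatory element was present for 1 of the 13, for 72 of the 5968 (1.21%) and for 331 of the 27025 (1.22%). These matches describe letters in a window.

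Other cells of the same livers gave lower sums of the 20 genes. In cDCs the sum was 988 and 919 CPM in the controls, 492, 386 and 444 CPM with HFD+F+CCl4 and 326, 349 and 372 CPM with WD+F+CCl4. B cells ranged from 492 and 754 CPM in controls to 211 to 400 CPM in NASH mice, and all remaining cells from 675 and 884 CPM to 241 to 495 CPM. Within each mouse the pDC sum was above that of cDCs, B cells and all remaining cells. The same test on summed cDC counts, added after the data were seen, called 6 of 18 sterol genes lower in NASH with a median of −1.55, at a background of 92 of 9056 genes (1.02%), 70 of them lower (0.773%). Whether the NASH change differed between pDCs and cDCs was tested as the difference of the 2 changes across all genes: none of the 20 sterol genes passed with edgeR (smallest adjusted p = 0.964, none at an unadjusted p under 0.05), against 24 of 10266 genes (0.234%).

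**Figure D4:**
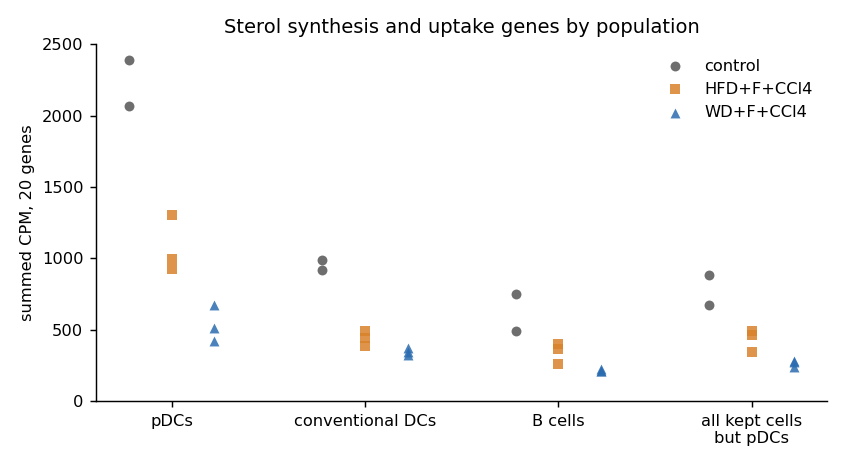
Summed CPM of the 20 sterol genes per mouse in pDCs, cDCs, B cells and all other passing cells. The control pDCs stand highest at 2391 and 2068 CPM, and the NASH points lie below the control points in each of the 4 cell populations.

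The fall was also seen cell by cell. With each pDC thinned to 1000 UMIs, which leaves out 38 shallower cells of control, 25 of HFD+F+CCl4 and 3 of WD+F+CCl4 mice, the mean number of sterol UMIs per cell was 2.52 and 1.69 in the control mice, 0.818, 1.08 and 1.43 with HFD+F+CCl4 and 0.413, 0.695 and 0.46 with WD+F+CCl4. The share of pDCs with none was 16.9% and 29.3% in controls, 54.5%, 48.8% and 42.0% with HFD+F+CCl4 and 69.5%, 62.7% and 72.4% with WD+F+CCl4. In every NASH mouse this share was above both controls. Without thinning, the share of pDCs with at least 1 sterol UMI was 95.1% and 78.8%, 100%, 76.3% and 90.3%, and 71.9%, 65.8% and 74.8% in the same order, which mixes level with depth.

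The count of 15 genes lower in NASH rested in part on control mouse 1, without which it was 5 and the WD+F+CCl4 and HFD+F+CCl4 counts were 7 and 0 (edgeR, with 6 lower at an unadjusted p under 0.05 in HFD+F+CCl4). It was 16, 19 and 8 without control mouse 2 and HFD+F+CCl4 mouse 1 together, 17 in NASH without the 57 pDCs carrying genes of other lineages, 9 with DESeq2, 9 with a fit of only the groups compared and 6 after thinning. The HFD+F+CCl4 count of 8 was 2 without HFD+F+CCl4 mouse 2, 5 without HFD+F+CCl4 mouse 3, 2 with DESeq2, 2 after thinning and 4 with replicate numbers as a block. The WD+F+CCl4 count of 18 was 11 with DESeq2 and 8 after thinning. The hepatocyte and T and NK cell genes fell in the same pDCs, and their part in the result was not tested.

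Abcg1, the transporter that passes cholesterol to HDL and a target of the oxysterol receptor LXR, at chr17:31057675-31117988, stood at 23.4 and 22.2 CPM in the controls, 146, 115 and 68.95 CPM with HFD+F+CCl4 and 159.6, 132 and 167 CPM with WD+F+CCl4 (2.40 ± 0.31, adjusted p = 4.85e-07). Each NASH mouse lay above both controls, which was a condition for naming the gene. Abcg1 passed in HFD+F+CCl4 (1.99, adjusted p = 0.000321) and in WD+F+CCl4 (2.80, adjusted p = 2.16e-08). In cDCs Abcg1 stood at 62.7 and 78.8 CPM in the controls, 83.8, 57.9 and 60.7 CPM with HFD+F+CCl4 and 81.8, 94.3 and 98.00 CPM with WD+F+CCl4, and the NASH change in pDCs exceeded that in cDCs by 2.26 ± 0.43 on the log2 scale (edgeR, adjusted p = 0.00651). The make-up of the cDCs differed between mice, with type 1 cells 71 of 97 and 45 of 68 in controls, 55 of 130, 157 of 267 and 127 of 169 with HFD+F+CCl4 and 49 of 138, 54 of 209 and 81 of 130 with WD+F+CCl4, and its part in this difference was not tested. Abcg1 stood at 67.9 and 76.3 CPM in type 1 cDCs of the controls and at 60.5 to 94.7 CPM in those of NASH mice, and in type 2 cDCs at 38.6 and 99.7 CPM and at 49.7 to 127 CPM. Macrophage genes also summed higher in pDCs of several NASH mice, as given above, and their part in the rise of Abcg1 was not tested. Abca1, the other LXR-driven exporter, stood at 3.89 and 7.41 CPM (control), 24.3, 24.2 and 0 CPM (HFD+F+CCl4) and 40.3, 57.4 and 33.8 CPM (WD+F+CCl4) and passed in WD+F+CCl4 (3.28 ± 0.73, adjusted p = 0.00921) but not in NASH as a whole (adjusted p = 0.106).

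Of the 15 tested LXR and lipid genes, 1 was higher and 3 were lower in NASH, beside 3.61% of all genes passing. Their median was 0.42 against −0.01 over all genes. The 3 that fell make or desaturate fatty acids. Scd1, a stearoyl-CoA desaturase, stood at 78.8 and 163 CPM (control), 72.9, 44.7 and 17.2 CPM (HFD+F+CCl4) and 6.01, 9.57 and 24.4 CPM (WD+F+CCl4) (−2.20 ± 0.42, adjusted p = 0.00629). Scd2, its paralog, stood at 189 and 185 CPM (control), 72.9, 117 and 119 CPM (HFD+F+CCl4) and 51.5, 98.1 and 116 CPM (WD+F+CCl4) (−0.89 ± 0.24, adjusted p = 0.0238). Fasn, the fatty acid synthase, stood at 62.3 and 66.7 CPM (control), 24.3, 26.1 and 21.5 CPM (HFD+F+CCl4) and 23.2, 45.5 and 17.8 CPM (WD+F+CCl4) (−1.32 ± 0.34, adjusted p = 0.0159), and Srebf1, the SREBP of fatty acid synthesis, did not pass (−0.58 ± 0.33, adjusted p = 0.463). Cpt1a, which takes fatty acids into mitochondria and lay outside the lists, rose from 13.6 and 14.8 CPM in controls to 24.3 to 55.03 CPM in NASH mice (1.67 ± 0.41, adjusted p = 0.0118).

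Other genes that rose were named by a rule on size, level and non-overlap of mice, which 51 genes met. Clec9a, a receptor for dead cells best known from type 1 cDCs, stood at 62.3 and 37.1 CPM in the controls, 170.0, 189.8 and 164 CPM with HFD+F+CCl4 and 137, 172 and 156 CPM with WD+F+CCl4 (1.53 ± 0.25, adjusted p = 4.54e-05). Gpr183, which guides cells along oxysterols, stood at 45.7 and 29.6 CPM (control), 72.9, 106 and 114 CPM (HFD+F+CCl4) and 91.8, 175 and 87.3 CPM (WD+F+CCl4) (1.36 ± 0.31, adjusted p = 0.00652). Fkbp5, a glucocorticoid-induced co-chaperone, stood at 31.1 and 29.6 CPM (control), 97.1, 115 and 92.7 CPM (HFD+F+CCl4) and 74.6, 71.8 and 97.6 CPM (WD+F+CCl4) (1.59 ± 0.29, adjusted p = 0.000327). The rule itself asked that all 6 NASH mice lie above both controls. Fgfr1, a fibroblast growth factor receptor, rose (1.43, adjusted p = 0.00767), as did Ino80b of a chromatin remodelling complex (1.44, adjusted p = 0.0114), Cir1 (1.42, adjusted p = 0.0164), Wdr89 (1.39, adjusted p = 0.000481), Fam214a (1.39, adjusted p = 0.006), Eif2d (1.39, adjusted p = 0.0472) and Wdr70 (1.36, adjusted p = 0.0446).

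Among the genes that fell, 52 met the rule, and the largest falls were of hepatocyte genes. Serpina3k, a hepatocyte serpin, stood at 383 and 193 CPM (control), 146, 35.4 and 4.31 CPM (HFD+F+CCl4) and 7.72, 2.39 and 2.81 CPM (WD+F+CCl4) (−4.75 ± 0.61, adjusted p = 0.0136), and Fgg, a fibrinogen chain, at 126 and 66.7 CPM (control), 24.3, 13.03 and 6.46 CPM (HFD+F+CCl4) and 2.57, 7.18 and 0.938 CPM (WD+F+CCl4) (−4.25 ± 0.38, adjusted p = 2.36e-10). In the remaining cells of the same livers the mean of Serpina3k was 521 CPM in control and 21.1 CPM in NASH mice. Both genes belong to the hepatocyte marker list described above. Apart from them, the genes named as falling were those of sterol synthesis and Aacs.

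Of 24 tested genes of pDC identity, 1 rose and 1 fell in NASH, beside 3.61% of all genes tested, with a median of 0.06. Atp1b1, the sodium pump beta subunit, stood at 549 and 459.5 CPM in the controls, 534, 919 and 761 CPM with HFD+F+CCl4 and 821, 936 and 1046 CPM with WD+F+CCl4 (0.76 ± 0.21, adjusted p = 0.0292). Cd300c, an activating receptor, stood at 303 and 356 CPM (control), 243, 147 and 211 CPM (HFD+F+CCl4) and 214, 191 and 203 CPM (WD+F+CCl4) (−0.70 ± 0.19, adjusted p = 0.0249). The list of transcription factors also holds some that were lower in pDCs than in cDCs, such as Batf3 and Id2. None of its 13 tested genes passed in NASH with edgeR or DESeq2, and 3 had an unadjusted edgeR p under 0.05. Spib, an Ets family factor, was lower in HFD+F+CCl4 pDCs (−0.76 ± 0.21, adjusted p = 0.0426). Tcf4 (0.02 ± 0.18, adjusted p = 0.993), Irf8 (0.01 ± 0.17, adjusted p = 0.999) and Bst2 (0.24 ± 0.20, adjusted p = 0.676) did not pass.

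**Figure D5:**
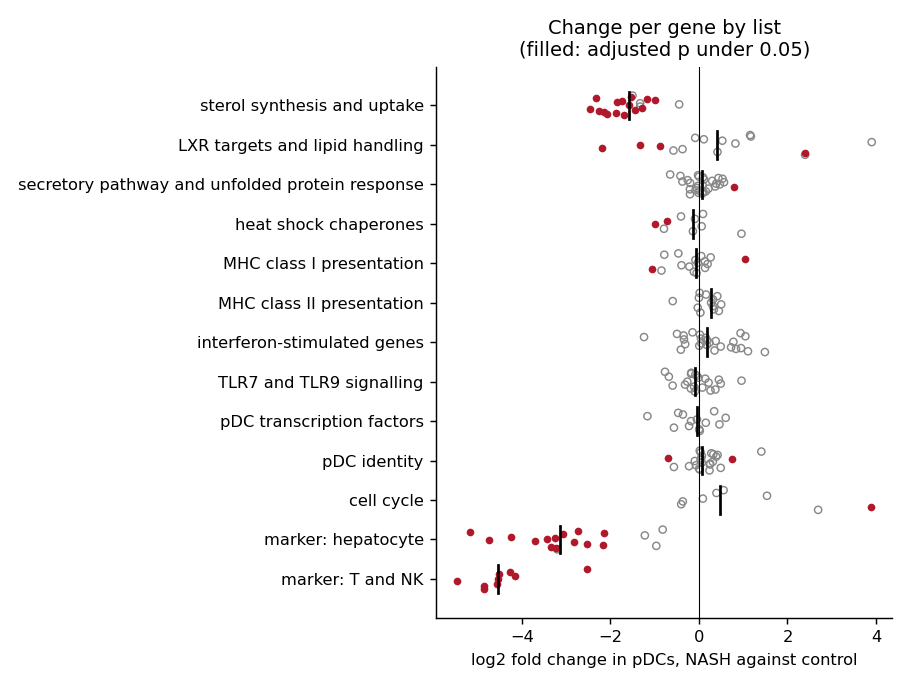
The log2 fold change of NASH against control pDCs for each tested gene of 13 lists, with filled points at an adjusted p under 0.05 and a black bar at the list's median. The sterol list has its median at −1.59 and 15 filled points, and the medians of the identity, Toll-like receptor and interferon lists lie near 0.

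Sensing and interferon genes were read beside the 3.61% of all genes that passed, a share at which lists of this size hold few calls or none. None of 21 genes of Toll-like receptor 7 and 9 signalling passed in NASH with edgeR or DESeq2, and 4 had an unadjusted edgeR p under 0.05. Pld4, the endolysosomal exonuclease, was the most abundant of them (0.45 ± 0.19, adjusted p = 0.242). None of 14 interferon receptor and JAK-STAT genes passed with either tool, and 1 had an unadjusted edgeR p under 0.05, with the phosphatase Ptpn6 the most abundant (0.37 ± 0.20, adjusted p = 0.424). Tlr7 itself stood at 134 and 148 CPM in the controls, 170.0, 115 and 129 CPM with HFD+F+CCl4 and 150.1, 103 and 128 CPM with WD+F+CCl4 (−0.09 ± 0.22, adjusted p = 0.926). The 38 interferon-stimulated genes summed to 8717 and 8917 CPM in the controls, 9253, 8904 and 9332 CPM with HFD+F+CCl4 and 11423, 11033 and 9293 CPM with WD+F+CCl4, with a median log2 fold change of 0.18 in NASH. None of the 26 tested passed with edgeR or DESeq2, and 4 had an unadjusted edgeR p under 0.05. The most abundant, Ly6e, an interferon-induced surface protein, had a log2 fold change of 0.16 ± 0.17, adjusted p = 0.784. Phf11b, an interferon-inducible gene, stood at 42.8 and 44.5 CPM (control), 97.1, 83.8 and 62.5 CPM (HFD+F+CCl4) and 108, 88.5 and 72.2 CPM (WD+F+CCl4) and passed in WD+F+CCl4 pDCs (1.14 ± 0.29, adjusted p = 0.0161). Irf7 (0.49 ± 0.23, adjusted p = 0.331) and Isg15 (1.49 ± 0.55, adjusted p = 0.18) did not pass in NASH.

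Interferons themselves were close to undetected. Of 19 type I and III interferon genes, 17 had no UMI in any of the 1284 pDCs, which allows a share of cells with a UMI of up to 0.234% and a level of up to 0.618 CPM over all pDCs, for counting error only. Whether reads were lost among similar interferon genes was not tested. Ifnb1 had 1 UMI in control mouse 2, and Ifna2 had 2 UMIs in WD+F+CCl4 mouse 3. At this depth no difference in interferon transcripts between groups was detectable.

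The MHC class II genes summed to 12008 and 10095 CPM in the controls, 13454, 14937 and 17615 CPM with HFD+F+CCl4 and 8521, 11011 and 14167 CPM with WD+F+CCl4, and none of 13 tested genes passed in NASH, in either model or between the models with edgeR. At an unadjusted edgeR p under 0.05 there was 1 in NASH, 2 in HFD+F+CCl4, 1 in WD+F+CCl4 and 5 between the models, and DESeq2 called 1 gene, between the models. The WD+F+CCl4 mice had log2 fold changes below 0 against HFD+F+CCl4 mice for 12 of 13 genes, with a median of −0.41. Per cell thinned to 1000 UMIs, the median number of MHC class II UMIs was 11.5 and 7.5 in controls, 14, 12 and 13.5 with HFD+F+CCl4 and 6, 8 and 12 with WD+F+CCl4. In the MHC class I list, 1 of 16 genes rose and 1 fell, beside 3.61% of all genes tested. Psmb8, an interferon-inducible immunoproteasome subunit, stood at 388 and 252 CPM in the controls, 850.0, 525 and 719.7 CPM with HFD+F+CCl4 and 631, 608 and 853 CPM with WD+F+CCl4 (1.04 ± 0.22, adjusted p = 0.00222). H2-Q6, a nonclassical class I gene with near-identical neighbours, fell (−1.05 ± 0.27, adjusted p = 0.0168).

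Of the inhibitory receptors, Lag3 passed among 15 tested, beside 3.61% of all genes tested, a share that holds for each list below. It stood at 147 and 111 CPM in the controls, 461, 219.6 and 284 CPM with HFD+F+CCl4 and 236, 273 and 289.9 CPM with WD+F+CCl4 (1.003 ± 0.22, adjusted p = 0.00412), higher in each NASH mouse than in both controls. None of 16 migration and adhesion genes passed in NASH with edgeR or DESeq2 (2 at an unadjusted edgeR p under 0.05), and Selplg, a ligand of P-selectin, had a log2 fold change of 0.21 ± 0.19, adjusted p = 0.717. Of 29 secretory genes, Sec61g, a subunit of the protein translocon, rose (0.78 ± 0.20, adjusted p = 0.0191), and Xbp1 did not pass (−0.20 ± 0.19, adjusted p = 0.717). Among effector molecules, Ccl5, a chemokine that is also in the T and NK cell list, fell, and Tgfb1 rose in HFD+F+CCl4 pDCs (0.79 ± 0.22, adjusted p = 0.042). None of 16 immediate early genes passed in NASH with edgeR or DESeq2, and 2 had an unadjusted edgeR p under 0.05. The most abundant, Btg2, an antiproliferative early response gene, had a log2 fold change of −0.05 ± 0.30, adjusted p = 0.982.

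Of 9 heat shock genes, Hspa8 fell, at 567 and 1364 CPM (control), 461, 459.7 and 489 CPM (HFD+F+CCl4) and 474, 366 and 459.7 CPM (WD+F+CCl4) (−0.99 ± 0.22, adjusted p = 0.00583), with the highest value in the shallow control mouse 2, and Hsp90aa1 fell too (−0.72 ± 0.19, adjusted p = 0.0176). In the respiratory chain list 1 of 26 genes rose (Uqcrc1, 1.14 ± 0.25, adjusted p = 0.00392) and 1 fell (Cycs, −0.90 ± 0.21, adjusted p = 0.00769), beside 3.61% of all genes tested. Cox6a1, the paralog of the rule gene Cox6a2, had a log2 fold change of 0.30 ± 0.19, adjusted p = 0.535. Of 8 tested cell cycle genes, Top2a, a topoisomerase of dividing cells, stood at 1.95 and 0 CPM in the controls, 24.3, 74.5 and 94.8 CPM with HFD+F+CCl4 and 14.6, 9.57 and 4.69 CPM with WD+F+CCl4 and passed (adjusted p = 0.000738). It had 111 UMIs in NASH pDCs and 2 in control pDCs, a ratio of pooled levels of 17.5 (exact 95% interval 4.72 to 146, counting error only). This ratio leaves out the spread between mice and is a description, since Top2a could meet the count limit through the NASH mice. Every HFD+F+CCl4 mouse lay above every WD+F+CCl4 mouse. Top2a passed with edgeR in HFD+F+CCl4 but not in WD+F+CCl4 pDCs, and was lower in WD+F+CCl4 than in HFD+F+CCl4 pDCs. Mki67 and Hmgb2 passed as well in HFD+F+CCl4 pDCs. Of the cDC markers, Itgax (CD11c) rose besides Clec9a (0.88 ± 0.24, adjusted p = 0.0255), 2 of 10 tested. The defining type 1 cDC marker Xcr1 stood at 1.95 and 7.41 CPM in the controls, 0, 9.31 and 23.7 CPM with HFD+F+CCl4 and 1.72, 0 and 0 CPM with WD+F+CCl4, and the 13 cDC markers summed to 1020 and 1164 CPM in control and 1022 to 1360 CPM in NASH pDCs. Their part in these results was not tested.

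Between the models, 17 of 7592 genes passed (0.224%), 7 higher (0.0922%) and 10 lower (0.132%) in WD+F+CCl4 pDCs, and 705 had an unadjusted p under 0.05. Msmo1 (−1.34 ± 0.26, adjusted p = 0.0112) was lower, as were Hmgcs1 (−1.18 ± 0.27, adjusted p = 0.0493) and, outside the naming rule, Sqle (−1.95 ± 0.38, adjusted p = 0.0112). Of 19 sterol genes, 4 passed, with a median of −1.03. Ldhb, a lactate dehydrogenase subunit, was higher, at 83.7 and 66.7 CPM (control), 48.6, 53.98 and 34.5 CPM (HFD+F+CCl4) and 95.2, 103 and 129 CPM (WD+F+CCl4) (1.41 ± 0.26, adjusted p = 0.0107). Mrps34, a mitochondrial ribosomal protein (1.20 ± 0.28, adjusted p = 0.0493), and Zfas1, a small nucleolar RNA host gene (1.06 ± 0.24, adjusted p = 0.0493), were higher too. The hepatocyte genes Gc (−2.36 ± 0.51, adjusted p = 0.0493) and Mup20 (−1.84 ± 0.42, adjusted p = 0.0493) were lower, in pDCs whose hepatocyte list summed to 302 to 2186 CPM with HFD+F+CCl4 and 338 to 747 CPM with WD+F+CCl4, and its part in these results was not tested.

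The counts between the models rested on single mice. Without HFD+F+CCl4 mouse 2 no gene passed with edgeR (426 at an unadjusted p under 0.05), without HFD+F+CCl4 mouse 1 9 passed, and without WD+F+CCl4 mouse 3 26 did. Of the named genes, Mrps34, Zfas1, Gc, Mup20 and Hmgcs1 did not pass without HFD+F+CCl4 mouse 1 (adjusted p = 0.0741 to 0.0875), and Gc, Mup20 and Hmgcs1 did not without control mouse 1, which enters the shared estimate of the spread (adjusted p = 0.0628 to 0.0672). Gc also did not pass without control mouse 2 (adjusted p = 0.0517). The sterol count of 4 fell to 0 without HFD+F+CCl4 mouse 2 or 3 (13 and 6 lower at an unadjusted edgeR p under 0.05), to 1 without WD+F+CCl4 mouse 1, to 2 without WD+F+CCl4 mouse 3 and to 0 with DESeq2 (13 of the 19 at an unadjusted edgeR p under 0.05), which called 81 genes, 79 of them higher.

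Genes that the study followed in monocytes, macrophages and DCs of these same mice were read in pDCs as well. They were chosen on these samples, so that their counts are no independent evidence. Over all genes tested, 3.61% passed in NASH. Of 14 tested genes 1 passed in NASH: Fmnl1, a formin that shapes the actin cytoskeleton, stood at 151 and 282 CPM in the controls, 97.1, 119 and 123 CPM with HFD+F+CCl4 and 112, 76.6 and 85.4 CPM with WD+F+CCl4 and was lower (−0.82 ± 0.22, adjusted p = 0.0255), with an adjusted p of 0.157 with DESeq2. Myh9, non-muscle myosin, had −0.32 ± 0.19, adjusted p = 0.472 and Rac1, a small GTPase of the cytoskeleton, −0.14 ± 0.21, adjusted p = 0.968. Jun, a transcription factor induced by stress and by tissue dissociation, stood at 43.8 and 59.3 CPM in the controls, 656, 42.8 and 86.2 CPM with HFD+F+CCl4 and 115, 38.3 and 941 CPM with WD+F+CCl4 (2.13 ± 1.87, adjusted p = 0.733), with 2 mice far above the others. Spp1, osteopontin (1.29 ± 1.36, adjusted p = 0.792), and Socs3, a feedback inhibitor of cytokine signalling (0.82 ± 0.87, adjusted p = 0.775), did not pass.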

How the data were processed

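Droplet-based 3′ single-cell RNA-seq of 8 mouse livers was read from UMI count matrices that the authors deposited after bcl2fastq 2.20 and Cell Ranger, per the labels and file headers; the submitters' processing notes name GRCm38 and mm10, and the annotation release was not given in the sources used here. Barcode suffixes gave the mouse. The matrix is unnormalised and holds 55450 genes. No doublet caller was run; the rule removes barcodes that also hold Csf1r, Cd3e or Cd79a. Conventional DCs had at least 2 UMIs of Xcr1, Clec9a and Cd209a together and none of Siglech, Csf1r, Cd3e and Cd79a, and B cells at least 2 of Cd79a and none of Siglech, Csf1r and Cd3e.

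Raw UMIs were summed per mouse and tested with edgeR 4.0.16 (R 4.3.3; TMM, a count minimum of 10 by filterByExpr, robust quasi-likelihood, 3 groups in 1 fit, adjusted p under 0.05); pDCs and conventional DCs were compared with mouse as a term. A log2 fold change is given with its SE. Shares were compared by exact permutation over mice, with every split counted, and their binomial intervals were computed with SciPy 1.17.1. CPM are UMIs per 1000000 UMIs of the summed cells. The scripts were tested on simulated counts. Gene coordinates are GENCODE M21 (GRCm38), matched by gene ID.

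The members and gene lists were chosen with earlier results of these data known. Named genes were the 12 largest rises and 12 largest falls (between the models 6 and 6) at an adjusted p under 0.05, a mean log2 CPM of at least 5, mice of the groups not overlapping, and a mean CPM in pDCs at least 0.5 times that of the other cells in the group where the gene is higher, without gene models, mitochondrial, ribosomal protein and rule genes, plus the pDC identity list, Cox6a1, 6 genes of the study and examples of each list. Some genes that this rule names are not reported here. Nothing says that mice shared more than their group, and replicate numbers were not used to pair them. Alternatives were DESeq2 1.42.0, no TMM, other count, depth, Siglech and lineage limits, a replicate block, other comparators and leaving out mice. Intervals cover counting error only.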

Additional observations from a re-analysis of the deposited data

Results flagged for a closer look

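Among 59 sets of values over the 6 NASH mice, 9 had 1 mouse far from the other 5 (gap over range above 0.625, which chance gives in about 1 of 20 sets). HFD+F+CCl4 mouse 1, whose values rest on 11 pDCs, was that mouse in 6 of them. Its interferon receptor and JAK-STAT genes summed to 1991 CPM against 2276 to 2357 CPM, its effector molecules to 1069 CPM against 340 to 601 CPM, and its LXR and lipid genes to 7043 CPM against 1817 to 3693 CPM. Its Wdr89 stood at 72.9 CPM against 116 to 128 CPM, its Serpina3k at 146 CPM against 2.39 to 35.4 CPM, and its Socs3 at 146 CPM against 6.46 to 27.2 CPM.

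The neutrophil genes in pDCs of WD+F+CCl4 mouse 1 summed to 6984 CPM against 87.3 to 1607 CPM, and the erythrocyte genes of HFD+F+CCl4 mouse 2 to 7652 CPM against 0 to 88.3 CPM. Fdps stood at 75.4 CPM in HFD+F+CCl4 mouse 3 against 18.02 to 39.1 CPM, still below both controls.

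For 7 genes named between the models, the change against control differed by edgeR. They were named because they passed this contrast, so that the values here restate it. The log2 change with WD+F+CCl4 minus that with HFD+F+CCl4 was 1.41 for Ldhb (changes of 0.53 and −0.88), 1.20 for Mrps34 (1.04 and −0.16) and 1.06 for Zfas1 (0.34 and −0.72). It was −2.36 for Gc (−3.96 and −1.60), −1.84 for Mup20 (−3.65 and −1.82), −1.34 for Msmo1 (−2.53 and −1.19) and −1.18 for Hmgcs1 (−2.67 and −1.49). For Abcg1, the NASH change in pDCs minus that in conventional DCs was 2.26.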

How the results depend on the processing

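Of 1424 values for 84 pairs of a named gene and a comparison under an alternative, 1269 kept their side of the threshold, 152 lost it and 3 gained it. Of the 84 pairs, 28 lost it under at least 1 alternative. The pairs include large differences between pDCs and conventional DCs and study genes that did not pass, so that these shares do not describe the NASH calls alone. The sign was opposite in 5 values, 3 of Rac1 and 2 of Spp1, which passed neither in the reported fit nor there. Without 1 NASH mouse, 19 to 28 of the named NASH calls were kept. Counts moved more. For NASH, HFD+F+CCl4 and WD+F+CCl4 against control, DESeq2 called 131, 78 and 135 genes, a fit without the count filter 494, 260 and 496, and thinning to 1000 UMIs 94, 94 and 86. Leaving out 1 mouse gave 115 to 292, 68 to 168 and 154 to 293 genes; the lowest were without control mouse 1, and without HFD+F+CCl4 mouse 2 or 3 the HFD+F+CCl4 count was 78 or 101. Between the models, DESeq2 called 81, no count filter 54, more than 1000 genes per cell 11, thinning 63 and leaving out cells with genes of other lineages 32. Leaving out 1 mouse gave 0 to 26 (9 without HFD+F+CCl4 mouse 1 or WD+F+CCl4 mouse 2, 11 without HFD+F+CCl4 mouse 3, 7 without WD+F+CCl4 mouse 1), and leaving out control mouse 2 and HFD+F+CCl4 mouse 1 together gave 33. The cause was not tested. Without TMM, which shifted the median log2 change by −0.09, −0.14 and 0.17 in the next 3 comparisons, 286 genes passed for WD+F+CCl4 (88 higher, 198 lower), 19 between the models (1 and 18) and 3594 for pDCs against conventional DCs (2264 and 1330). The pDC share differed by −1.89 points after thinning with 1 Siglech UMI, by −1.69 with more than 1000 genes per cell and by −0.892 to −0.461 without 1 mouse. Between the models it differed by 0.411 to 1.24 points without 1 mouse and by 0.587 to 1.46 points under the other settings.

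Deviations from the group means correlated at −0.117 to 0.0384 between same-numbered mice. With 2 or 3 mice per group these deviations are tied to each other, so that they cannot decide whether the numbers pair mice. With the replicate block, 178 genes passed for NASH and 93 for HFD+F+CCl4. Depth limits HFD+F+CCl4 mouse 1 most, where 1 UMI is 24.3 CPM.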

Other observations

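A further 640 cells had at least 3 Siglech UMIs and Ccr9 or Cox6a2 but also held Csf1r, Cd3e or Cd79a. Pooled, they held 1568 CPM of Bst2, 1636 CPM of Tcf4 and 1498 CPM of Ly6d, with 3464 CPM of Lyz2 and 299.8 CPM of C1qa. These cells were not counted as pDCs.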
